A study of Rattus norvegicus with 3 samples.

Results

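Transcripts of 5 subunit genes of the M-current and the h-current were read in the hippocampus of wild-type, healthy rats that had been gavaged with Q808 for 28 days. Q808 is a compound known here by its code name only. The genes are Kcnq3 and Kcnq5, which encode Kv7 potassium channel subunits, and Hcn2, Hcn3 and Hcn4, which encode hyperpolarization-activated cation channel subunits. They were found by gene identifier from a list of names, with no threshold on measured values, and make up 5 of the 18560 genes measured. The series has 3 samples of 1 group, numbered 1 to 3. Untreated hippocampus was not analysed here, so no value measures an effect of Q808. The labels used here state neither the dose, strain and age of the animals nor whether each sample is a separate animal. The count columns carry the prefix Con_Q, whose meaning is not given, so group membership rests on the sample labels alone.

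The M-current is a slowly activating potassium current that opens near the firing threshold, does not inactivate and restrains repetitive firing. It is carried by tetramers of Kv7 subunits, needs the membrane lipid PIP2, and is turned down when receptors coupled to Gq, such as muscarinic receptors, consume that lipid. Kv7 channels are the target of the anticonvulsant retigabine. The h-current is a mixed sodium and potassium current that opens on hyperpolarization. It sets resting potential and dendritic integration, and binding of cAMP to the HCN subunits eases its opening.

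All 5 genes had a row in replicate 2 only. The file of replicate 2 holds 15417009 counts, while those of replicates 3 and 1 hold the first 307 and 12 genes of the same alphabetical order, with 298642 and 11402 counts, and break off before any of the 5 genes. Every value of a channel gene is therefore 1 number from 1 library, with no replicate check and no test. Levels are given as CPM, the gene's count scaled to the library total, with 95% exact Clopper-Pearson intervals. Intervals reflect counting error alone and treat reads as independent. The reads carry no molecular identifiers and may repeat the same molecule, in which case the intervals are too narrow. Transcript lengths were not available here, so CPM ranks how many reads a gene yielded and not how many molecules it had. In whole tissue, fewer cells of a type and less RNA per cell cannot be told apart. The tissue is hippocampus by its label. All 5 listed markers of pyramidal and granule neurons had at least 136 CPM (Prox1), with Slc17a7 at 1796 CPM. No cortical markers were listed, so hippocampus against cortex was not tested. All 4 listed markers of thalamus and choroid plexus were detected as well, between 2.34 CPM (Folr1) and 176 CPM (Ttr, a choroid plexus gene), with a sum of 215 CPM. The 6 general neuron markers had a median of 1094 CPM, and the 5 of pyramidal and granule neurons one of 190 CPM. Glia gave many reads too, with medians of 757 CPM for the 5 astrocyte markers and 536 CPM for the 5 oligodendrocyte markers.

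Among the 5 genes, Hcn2 yielded the most reads and Hcn4 the fewest. Together they took 4443 counts, or 288 CPM, and all 5 reached the 10 counts used here as the minimum for a detected gene, as did 14295 (77.02%) of all genes. Hcn2, Kcnq5 and Kcnq3 lay above the median of detected genes, which was 25.2 CPM, and Hcn3 and Hcn4 lay below it. The median of the 5 was 61.5 CPM.

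Kcnq3 encodes the subunit that joins other Kv7 subunits in the classical M-channel and is gathered at the axon initial segment by ankyrin-G. It had 948 counts, or 61.5 CPM (95% interval 57.6 to 65.5). This is 2.44 times the median of detected genes, and 72.2% of detected genes had fewer counts. Kcnq5 encodes a further M-current subunit, present in hippocampal pyramidal neurons and interneurons of rodents. It had 1359 counts, or 88.1 CPM (83.5 to 93.0), with 80.5% of detected genes below it. Kcnq5 thus gave 1.43 times the reads of Kcnq3 (95% counting interval 1.32 to 1.56) and 58.9% of the 2307 counts of this pair (56.9 to 60.9%). Other subunits of the Kv7 and HCN families were not analysed here, so these shares describe the listed genes and not the whole families. Per length, the order of the pair would turn round if the counted transcript of Kcnq5 were more than 1.43 times as long as that of Kcnq3.

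Hcn2 encodes a subunit with a strong response to cAMP, found widely in the brain. It had 1898 counts, or 123 CPM (118 to 129), which placed it at rank 1893 of the 14295 detected genes and at 4.88 times their median. Hcn3 encodes a subunit whose channels respond little to cAMP. It had 213 counts, or 13.8 CPM (12.02 to 15.8), and 36.5% of detected genes had fewer counts. Hcn4 encodes the main subunit of the sinoatrial node, where it paces the heartbeat, and in rodent brain it is best known from the thalamus. It had 25 counts, or 1.62 CPM (1.05 to 2.39), so that 8.22% of detected genes lay below it. Its interval reached 47.6% from the value, against 4.60% for Hcn2, so the level of Hcn4 is known far less precisely. The thalamic markers Slc17a6 and Tcf7l2 had 26.1 and 10.2 CPM in the same library, and their part in the Hcn4 count was not tested. The lower bound of 1.05 CPM lay above 0.239 CPM, the upper bound of the same interval for a count of 0. The same holds for any gene that reaches the minimum of 10 counts, so it adds nothing to detection.

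The HCN genes were spread much more widely than the Kv7 pair. Hcn2 gave 8.91 times the reads of Hcn3 (7.73 to 10.3), and Hcn3 gave 8.52 times those of Hcn4 (5.62 to 13.5). Of the 2136 counts of these genes, 88.9% (87.4 to 90.2%) belonged to Hcn2, 9.97% (8.73 to 11.3%) to Hcn3 and 1.17% (0.759 to 1.72%) to Hcn4. Between the families, Hcn2 had 1.40 times the reads of Kcnq5 (1.30 to 1.50), and Kcnq3 had 4.45 times those of Hcn3 (3.83 to 5.19). All 4 neighbouring pairs in this order therefore differed in read yield beyond counting error, with reads taken as independent. Whether they would differ beyond the spread between animals could not be measured. Reads of Hcn3 could be shared with Pklr, the pyruvate kinase gene whose span overlaps that of Hcn3 in the RefSeq table. Pklr had 1 count. How the counting treated reads in the overlap is not stated, and its effect on the Hcn3 count was not tested. Kcnq3 overlaps 1 non-coding gene and Kcnq5 overlaps 2 genes that had no row in the counts, and no gene overlaps Hcn2 or Hcn4 there. The labels used here do not state the strand setting of the counting.

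**Figure D1:**
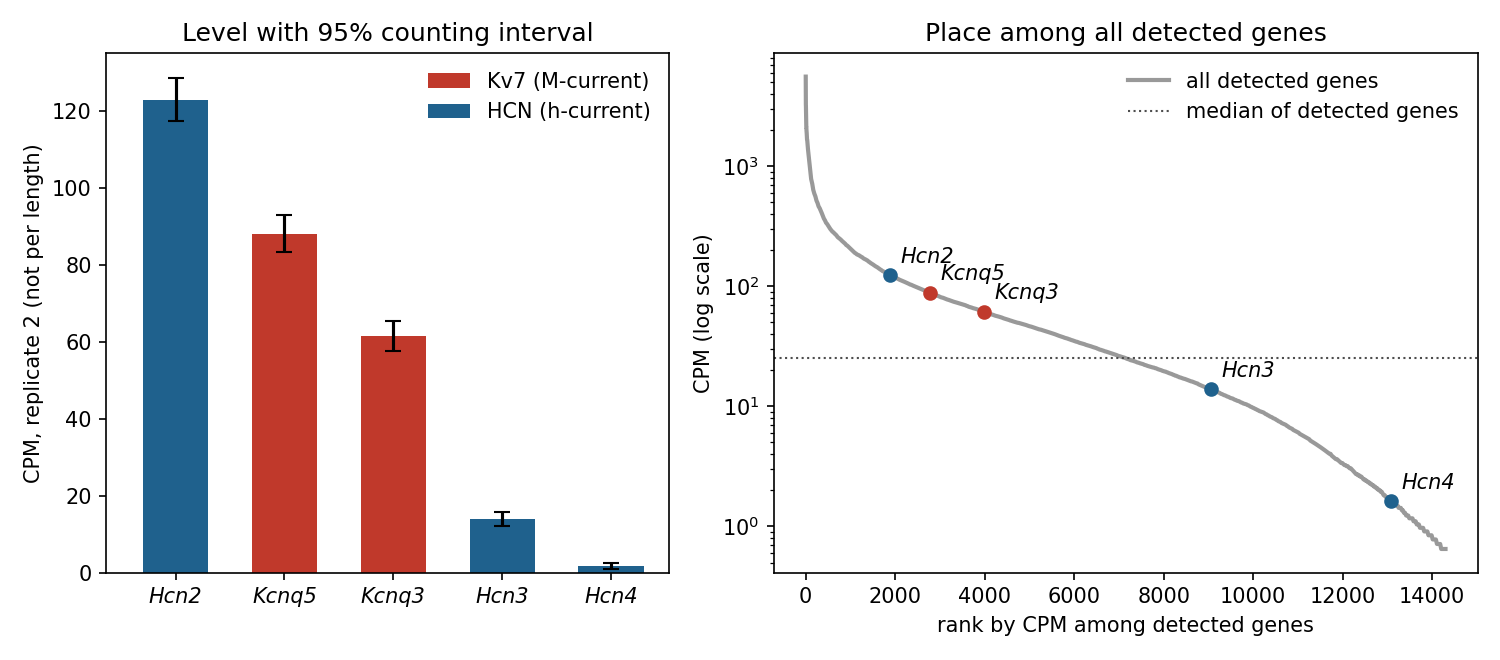
Left, CPM of the 5 channel genes in replicate 2 as bars, with 95% counting intervals as whiskers (Kv7 genes red, HCN genes blue). Right, the same genes on the curve of all 14295 detected genes ordered by CPM, with CPM on a log axis and the median of detected genes (25.2 CPM) as a dotted line. Hcn2, Kcnq5 and Kcnq3 sit above that line, and Hcn3 and Hcn4 below it.

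The window before the Hcn2 start is shown because Hcn2 gave the most reads of the 5 genes. Its promoter holds 3 matches to the GC box, the short element bound by Sp family factors. The 250 bases before the annotated RefSeq start (GRCr8, chr7:10639458-10639707, minus strand) read as follows, with matches to GGGCGG or its reverse complement CCGCCC in capitals.
Hcn2: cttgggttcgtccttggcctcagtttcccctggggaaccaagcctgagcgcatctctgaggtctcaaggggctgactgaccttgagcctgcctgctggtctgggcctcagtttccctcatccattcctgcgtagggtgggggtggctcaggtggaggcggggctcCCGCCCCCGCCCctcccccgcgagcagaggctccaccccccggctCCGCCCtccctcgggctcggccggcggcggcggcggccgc
The search covered both strands of the 300-base window from 250 bases before to 50 bases after the start, and let matches overlap. Hcn2 had 3 matches, all before the start. Of the 33469 promoters in the table, which outnumber the measured genes, 8.97% had 3 or more matches and 33.1% had any. Both shares were higher among the measured genes with a promoter in the table, whose numbers are given below, so Hcn2 is less unusual among them. Kcnq5 had 2 matches, both after the start used in the table, which lies 1118 bases inside the outermost annotated start of the gene, while that of Hcn2 is the outermost. Neither window held TATAAA on either strand, which 14.2% of all windows did. CG dinucleotides numbered 28 in the Hcn2 window and 26 in that of Kcnq5, against a median of 7 over all windows. Across genes, read yield and GC boxes went together. The classes that follow hold only measured genes with a promoter in the table, each taken once, and leave out the other measured genes. Of the 2384 measured genes with 3 or more matches, 94.8% were detected with a median of 38.2 CPM. Of the 5304 genes with 1 or 2 matches, 88.3% were detected with a median of 30.4 CPM, and of the 6444 genes with none, 69.0% were detected with a median of 19.7 CPM. Hcn2 at 123 CPM lay above the upper quartile of its class (92.2 CPM), and Kcnq5 at 88.1 CPM above that of its own (74.7 CPM). No window was available for Kcnq3, Hcn3 and Hcn4, which gave fewer reads than Hcn2 and Kcnq5. The standing above the quartiles therefore describes the 2 highest of the 5 genes only. These are descriptions across genes of 1 library, and a match shows neither a bound site nor a cause.

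Annotation deposited with the counts shows what the genes share. The 5 genes carried 75 different Gene Ontology terms, of which 3 belonged to all of them: voltage-gated potassium channel activity, potassium ion transmembrane transport, and integral component of plasma membrane. The first of these was carried by 70 genes, 57 of them detected with a median of 31.1 CPM. Within these 57, Hcn2 ranked 8, Kcnq5 16, Kcnq3 20, Hcn3 39 and Hcn4 52. The genes therefore ran from the upper to the lower part of this term, which also holds genes that encode no channel, such as the SNARE gene Snap25 at rank 1. HCN genes took both the highest and the lowest of these 5 ranks. Potassium ion transmembrane transport was carried by 129 genes, with a median of 28.1 CPM over the 106 detected.

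**Figure D2:**
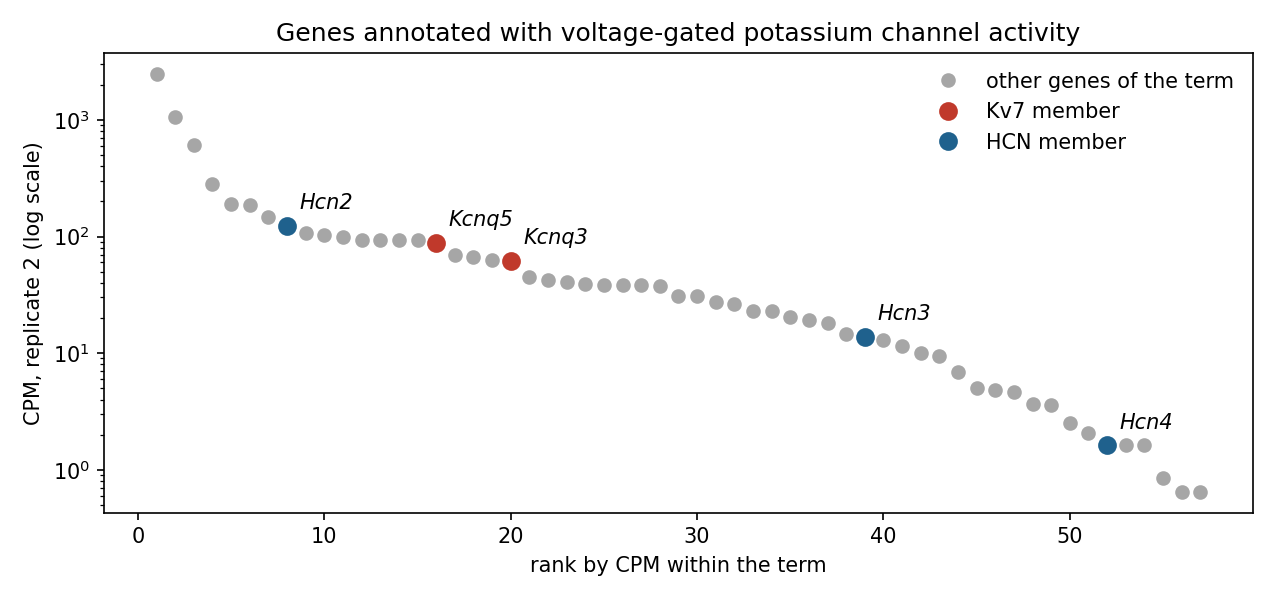
The 57 detected genes annotated with voltage-gated potassium channel activity, ordered by CPM in replicate 2 (log axis). Grey points are other genes, red points Kv7 genes and blue points HCN genes; Hcn2 is at rank 8 and Hcn4 at rank 52.

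In the rest of the annotation, some terms followed the families and others crossed them. Neuronal cell body, plasma membrane and regulation of ion transmembrane transport were each carried by Kcnq3 and all 3 HCN genes, but not by Kcnq5. Term medians include the channel genes themselves. Both Kv7 genes were annotated with calmodulin binding, for which 142 detected genes had a median of 53.1 CPM. Both were also annotated with delayed rectifier potassium channel activity, where the median of 21 detected genes, 61.5 CPM, is the value of Kcnq3 itself. Kcnq3 alone of the 5 was placed at the axon initial segment, a term of 15 genes that were all detected, with a median of 255 CPM, and at the node of Ranvier. All 3 HCN genes were annotated with cAMP binding, a term whose 24 detected genes had a median of 30.2 CPM and in which Hcn2, Hcn3 and Hcn4 ranked 6, 16 and 24. They also shared voltage-gated sodium channel activity (21 detected genes, median 41.3 CPM) with other channels. Among terms carried by only 1 of the 5 genes, Hcn4 held 16, several of them on heart rate and the sinoatrial node. Kcnq3 held 13, Hcn2 held 12, and Hcn3 and Kcnq5 held 2 each. In the KEGG annotation both Kv7 genes were part of the cholinergic synapse (101 detected genes, median 56.6 CPM), Kcnq5 at rank 42 and Kcnq3 at rank 49. Hcn2 and Hcn4 were part of cAMP signaling (165 detected genes, median 44.3 CPM), Hcn2 at rank 54 and Hcn4 at rank 154, and Hcn3 had no pathway.

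All 13 listed genes of the receptor pathway that closes M-channels were detected, where 77.02% of all genes were. Their median was 68.9 CPM, and 10 of them lay above the median of detected genes. The lists used here are short and were chosen with earlier results of these data known. Chrm1, the main muscarinic receptor gene of hippocampal pyramidal neurons, had 194 CPM (187 to 201). The protein kinase C genes Prkca and Prkcb, whose products phosphorylate Kv7 subunits, had 394 CPM (384 to 404) and 255 CPM (247 to 263). Genes that supply or consume the PIP2 the channels need were all detected too, 9 of 9, with a median of 106 CPM and each above the median of detected genes. Pip5k1c, the main kinase that makes PIP2 at synapses, had 481 CPM. Synj1, which encodes the phosphatase synaptojanin that removes phosphates from PIP2, had 307 CPM. Pi4ka, the kinase one step upstream, had 244 CPM.

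Partners of Kv7 channels varied widely in reads, with the calmodulin, ankyrin and spectrin genes highest and the small KCNE subunits lowest. Between them lay Akap5, Bace1, Nedd4l and Senp2, at 34.2, 49.5, 78.9 and 92.3 CPM, named after their values were seen. Of 16 listed genes, 14 reached the minimum, as did 77.02% of all genes. The median of these 14 was 185 CPM, against 85.6 CPM over all 16. Calm2 encodes calmodulin, which is bound to Kv7 subunits, and had 976 CPM. The spectrin gene Sptbn1 had 965 CPM. The anchors of the axon initial segment, Ank3 (279 CPM) and Sptbn4 (340.2 CPM), were named after their values were seen, for their known role in holding Kv7 channels there. The KCNE genes, which encode accessory subunits of potassium channels, stood far lower: Kcne1 and Kcne3 were at 0 counts, with 95% exact intervals that reach 0.239 CPM, and Kcne2, Kcne4 and Kcne5 had 75, 55 and 32 counts.

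The list of HCN channel partners, which shares Nedd4l and Kcne2 with the Kv7 list, had a lower median CPM. Of 14 listed genes, 12 reached the minimum, as did 77.02% of all genes, and the median of these 12 was 30.1 CPM. Of these, 8 lay above the median of detected genes. Vapa, which encodes a membrane contact protein, had 245 CPM. Ptpra and Src, which encode a receptor tyrosine phosphatase and a tyrosine kinase that act on HCN subunits, had 234 and 181 CPM. Pex5l, named after its value was seen, encodes TRIP8b, the auxiliary subunit that carries HCN channels into distal dendrites, and had 435 counts (28.2 CPM). Cav3, a caveolin gene of muscle, had 2 counts and Tcap, a sarcomere gene, had none.

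Genes that make and break cAMP, the ligand of HCN channels, were all detected, 17 of 17, where 77.02% of all genes were. Their median was 67.5 CPM. Adcy1, a calcium-stimulated adenylate cyclase gene, had 1192 CPM (1175 to 1210), Pde2a, a phosphodiesterase gene, had 401 CPM and Adcy9 had 157 CPM. Here a second sample could be read, because 7 adenylate cyclase genes stand in the part of replicate 3 that was available. Replicate 3 had a scale of 1.03 relative to replicate 2 by edgeR's TMM method over 243 of the 307 genes, those having 10 counts or more in both libraries. Adcy1 had 21634 counts in replicate 3 and 18383 in replicate 2, a scaled ratio of 1.14 (95% counting interval 1.12 to 1.16) and a scaled count of 19984 ± 1830 (SD, n = 2). Adcy2 and Adcy3 did not differ beyond counting error, with scaled ratios of 1.03 (0.971 to 1.09) and 1.02 (0.945 to 1.11). Adcy6 differed the most of the 7, with 1084 counts in replicate 3 and 748 in replicate 2 and a scaled ratio of 1.40 (1.28 to 1.54). Adcy5 had a ratio of 1.19 (1.11 to 1.27), Adcy8 of 1.21 (1.00 to 1.46) and Adcy7 of 1.09 (0.781 to 1.53). All 7 ratios were above 1 under this scaling, and 89.7% of the 243 genes lay within 1.5-fold of each other. These libraries thus differed by up to 1.40-fold in genes of this pathway, and the intervals printed for the channel genes hold none of that spread.

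**Figure D3:**
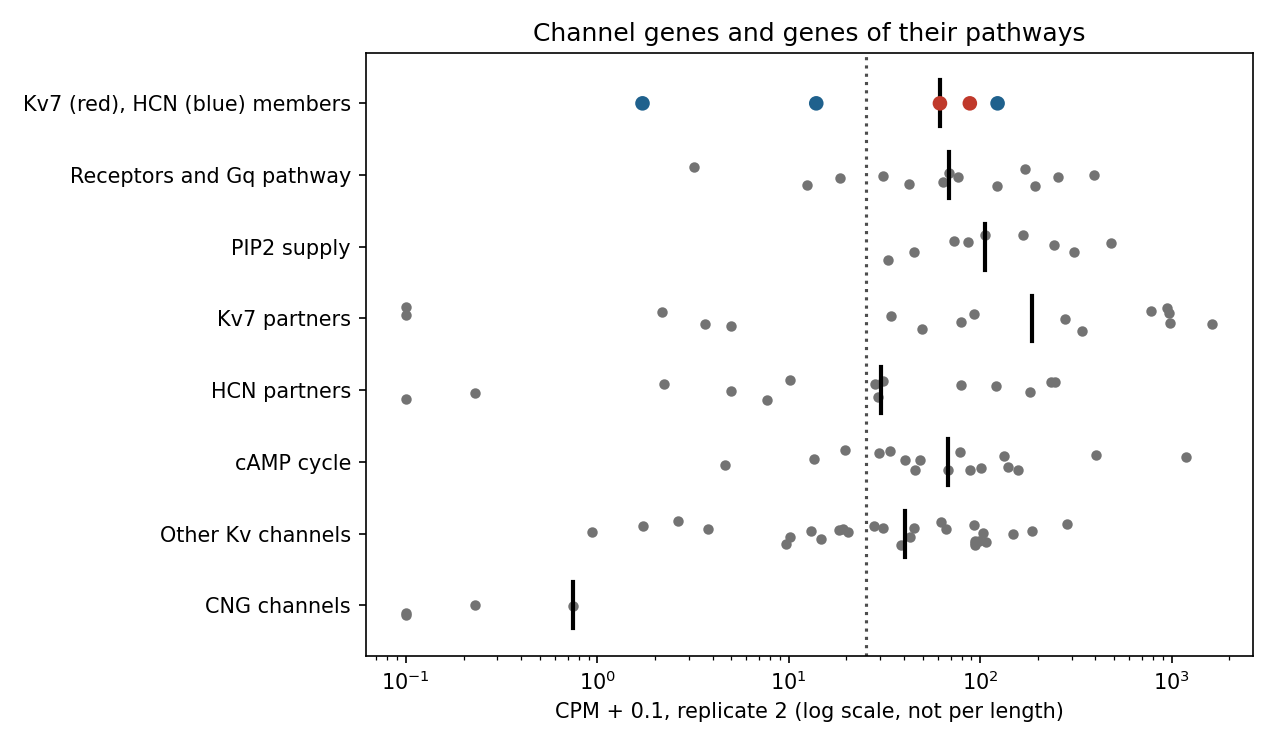
CPM + 0.1 in replicate 2 (log axis) of the 5 channel genes (top row, Kv7 red, HCN blue) and of each listed gene with a row (grey points). Black bars mark medians over detected genes and the dotted line the median of all detected genes; CNG stands for cyclic nucleotide-gated. The genes of PIP2 supply all lie right of the line, and the CNG genes all lie left of it.

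Other voltage-gated potassium channel genes and the cyclic nucleotide-gated channel genes, the relatives of HCN channels, were set beside the 5 genes. The 28 listed potassium channel genes all passed the minimum, as did 77.02% of all genes, and had a median of 40.6 CPM. Among the highest were Kcna2 (186 CPM) and Kcnd2 (148 CPM), which encode channels of axons and of the dendritic A-current. Hcn2 at 123 CPM would stand after these. By read yield the nearest genes to Kcnq3 were Kcnh1 (62.3 CPM) and Kcng1 (66.3 CPM), and those to Kcnq5 were Kcnd3 (92.5 CPM) and Kcna6 (93.4 CPM). The nearest to Hcn2 were Kcnc1 (108 CPM) and Kcng2 (103 CPM), and those to Hcn3 were Kcnd1 (14.6 CPM) and Kcns3 (12.9 CPM). Hcn4 and Kcna5 had 25 counts each. Next nearest to Hcn4 was Kcna3 (39 counts) on the log2(CPM + 1) scale and Kcnh5 (13 counts) by the difference in CPM. Likeness of pattern across samples could not be computed from 1 library.

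The cyclic nucleotide-gated channel genes gave almost no reads. Of 6 listed, 4 had a row, and 1 of these was detected, where 77.02% of all genes were. This was Cngb1, which encodes a subunit of the rod and olfactory channels, with 10 counts (0.649 CPM, 0.311 to 1.19). Cnga3 had 2 counts, and Cnga1 and Cnga4 had none. Each of the 3 HCN genes had more counts than any of them, the closest being Hcn4 with 25 counts and Cngb1 with 10.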

How the data were processed

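RNA from hippocampus was sequenced in 3 samples of 1 group. Per the labels' protocols, RNA was extracted with TRIzol, and libraries were made from mRNA captured on beads. Per the submitters' processing notes, the tools included Trimmomatic, the aligners HISAT2 and Bowtie2, SAMtools, HTSeq, StringTie, Cufflinks and DESeq. Tool versions, the genome build and whether counting used strand are not given in the sources that were used. The values deposited by the authors are unnormalized counts of reads per gene, with 1 file per sample, and no row lacked a gene identifier.

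Symbols came from the RefSeq table of GRCr8 by gene identifier, for 17515 of 18560 genes. Promoters came from RefSeq (GRCr8), matched for 2 of the 5 genes. CPM was computed over all counts of replicate 2 (Python 3.11.15, scipy 1.17.1). Ratios of counts have exact conditional binomial intervals. Intervals and scaling were checked on simulated data. Replicates 2 and 3 were scaled with edgeR 4.0.16, with DESeq2 1.42.0 size factors as an alternative. Levels per length and protein comparisons were planned and could not be made, since no lengths or proteins were available; CPM was used instead. The text names the 5 genes, the 3 highest genes of each list, list genes under 10 counts and the 2 nearest potassium or cyclic nucleotide-gated channel genes; any other gene is an added example. The genes and lists were chosen with earlier results of these data known. Some genes are not reported here.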

Additional observations from a re-analysis of the deposited data

How the results depend on the processing

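The CPM of each of the 5 genes stayed inside its counting interval when the 10 genes with the most counts were left out of the total (14912156 counts) or when only protein-coding genes matched in RefSeq made up the total (15335653 counts). All 5 genes had at least 1 count and 4 had at least 50, Hcn4 falling short. Among the lists, the count of detected cyclic nucleotide-gated channel genes was 1 at the minimum of 10 counts, 2 at 1 count and 0 at 50 counts, an effect of the minimum itself. The number of detected genes in each of the other 6 lists stayed within 1.5 times. With undetected genes included, the median of Kv7 partners was 85.6 CPM, against 185 CPM, and that of the cyclic nucleotide-gated genes was 0.0649 CPM, against 0.649 CPM. At a minimum of 50 counts the median of Kv7 partners was 279 CPM, and at 1 count that of the cyclic nucleotide-gated genes was 0.389 CPM. The ratios of the 7 adenylate cyclase genes between replicates 3 and 2 stayed inside their intervals with DESeq2 size factors, no filter or the total of shared genes, alternatives chosen after seeing the data. Alternatives by transcript length were not run, and leaving out replicate 2 ends every value of the 5 genes. No paired analysis was possible because there is only 1 group.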
